A study of Mus musculus with 137 samples.

Results

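Mammalian cells repair their DNA by several pathways that share few proteins, and 41 genes from 7 of these pathways were followed in individual 2-cell mouse embryos, out of 36043 genes (symbols) in the deposited count table. The 41 genes were fixed as a list of names: 10 of homologous recombination, 5 of mismatch repair, 9 of base excision and single-strand break repair, 3 of non-homologous end joining, 5 of the Fanconi anemia pathway, 2 damage checkpoint kinases and 7 of nucleotide excision repair. All 41 were found in the table, and the estimated counts of their transcript entries were summed by symbol.

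Homologous recombination copies an intact sister chromatid to mend a broken chromosome, whereas end joining ligates the broken ends directly. Mismatch repair removes replication errors, base excision repair removes small damaged bases and seals nicks, nucleotide excision repair cuts out bulky lesions, and the Fanconi anemia proteins unhook cross-linked strands. After fertilization an embryo relies on RNA and protein stored in the oocyte, which include repair factors, until its own genome is transcribed; in the mouse the main wave of that activation falls in the 2-cell stage.

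The series compared embryos of the B6129F1 strain, labelled 2-cell, whose zygotes were isolated 5 hours after fertilization and kept in KSOM medium in wet chambers with no oil. SR1848 embryos were held from 6 hours after fertilization in 10 µM SR1848, a compound that inhibits NR5A2, a nuclear receptor. SR1848_NR5A2OE embryos had the same 10 µM SR1848 and were given NR5A2 mRNA at 500 ng/µl, and DMSO embryos had only the solvent at 0.1%. Experiment 1 holds 27 SR1848_NR5A2OE, 17 SR1848 and 19 DMSO libraries, and experiment 2 holds 40, 24 and 10 of the same groups. The labels record no group that was injected without NR5A2 mRNA, so the effect of the injection and that of NR5A2 cannot be told apart. Each library is 1 embryo, primed with oligo-dT by the SmartSeq2 protocol; shared parents are not recorded, and p-values therefore rest on the spread among single embryos. A level of RNA in a whole embryo cannot tell fewer cells apart from less RNA per cell.

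Total counts ran from 100510 to 9250008 per library with a median of 4631377, and 7 libraries were left out for a low total or few detected genes, which leaves 130. Among the 16 libraries numbered 1 to 8 of the SR1848_NR5A2OE and of the DMSO group of experiment 2, levels went against the labels. Libraries 1 to 8 labelled SR1848_NR5A2OE had a median of 109.12 CPM of Nr5a2 (counts scaled to the size of the library) and at most 0.456 CPM of GFP, whereas libraries 1 to 8 labelled DMSO had medians of 2280.68 CPM of Nr5a2 and 2514 CPM of GFP. Library 4 labelled DMSO was less clear, with 47.68 CPM of GFP and 88.86 CPM of Nr5a2. Its Nr5a2 lay between those of the 2 DMSO libraries outside the 16 (84.36 and 104.97 CPM). In experiment 1 the median of Nr5a2 was 2548.21 CPM in SR1848_NR5A2OE, 12.72 CPM in SR1848 and 115.48 CPM in DMSO embryos, and GFP reached at most 0.771 CPM in DMSO embryos. Results of experiment 2 are therefore given without these 16 libraries, and counts and leading genes also as labelled; the first form leaves 30 SR1848_NR5A2OE, 24 SR1848 and 2 DMSO libraries. Further libraries labelled SR1848_NR5A2OE held little of the injected RNA: 9 of the 26 in experiment 1 had at most 32.9 CPM of GFP and 5.4 to 54.9 CPM of Nr5a2, and 5 of the 30 in experiment 2 had at most 71.2 CPM of GFP and 6.8 to 97.6 CPM of Nr5a2. The other 17 and 25 had at least 2301 and 1439.2 CPM of GFP and at least 2076.7 and 1706.5 CPM of Nr5a2. Among the 9, library 2 had 8390 detected genes, against a median of 16082 in its group. It passed the limits for low libraries and was kept, so ranges of SR1848_NR5A2OE embryos in experiment 1 include it. Counts of called genes in SR1848_NR5A2OE embryos and the tests of the called genes against SR1848 are given with all libraries and also without those under 100 CPM of GFP, a setting added after the data were seen. Of the 20 transcripts listed as marking the 2-cell stage, none had a median of 0 in DMSO embryos of experiment 1, where their summed level ran from 896.3 to 1398.7 CPM. The sum was lower at the median in SR1848 embryos (145.7 to 1915.5, median 323.6 CPM) and had a wide range in SR1848_NR5A2OE embryos (2.34 to 6485.3, median 2251.4 CPM). The order differed in experiment 2 without the 16 libraries, with medians of 168.8 CPM in SR1848_NR5A2OE, 406.5 CPM in SR1848 and 1109.4 CPM in DMSO embryos. Within SR1848_NR5A2OE the medians with GFP and with little GFP were 2215.1 and 2287.7 CPM in experiment 1. They were 147.3 and 3771.6 CPM in experiment 2. In experiment 1 the summed level of 33 oocyte and maternal transcripts was 20058.1 to 146308.4 CPM in SR1848_NR5A2OE, 43614.4 to 84721.3 CPM in SR1848 and 8465.5 to 16373.4 CPM in DMSO embryos. Every SR1848 and SR1848_NR5A2OE embryo thus lay above all DMSO embryos. Of 12 markers of cumulus and granulosa cells, which surround the egg, 6, 6 and 7 had a median of 0 in SR1848_NR5A2OE, SR1848 and DMSO embryos, and their sum was at most 52.6, 88.6 and 130.7 CPM. In DMSO embryos this sum lay mainly on Amhr2 (32.5 to 123.4 CPM, median 71.0), while Foxl2, Inha, Ptx3 and Fshr had 0.0 CPM in all of them. Amhr2 had medians of 9.18 CPM in SR1848_NR5A2OE and 0.0 CPM in SR1848 embryos. The sum of 7 spermatid markers was at most 14.5, 24.8 and 2.66 CPM in the same groups. The sum of 6 blood markers differed between the groups, with 0.0 to 424.9 CPM (median 229.9) in SR1848_NR5A2OE, 8.41 to 152.9 CPM (median 27.0) in SR1848 and 2.74 to 37.3 CPM (median 14.5) in DMSO embryos. It lay on the alpha-globin genes Hba-a1 and Hba-a2, while 4 of the 6, the beta-globin genes Hbb-bs and Hbb-bt among them, had a median of 0 in every group. In experiment 2 without the 16 libraries the medians of the sum were 148.6, 28.4 and 18.1 CPM. Within SR1848_NR5A2OE the sum had medians of 273.5 CPM in embryos with GFP and 156.0 CPM in those with little GFP in experiment 1. In experiment 2 these medians were 146.5 and 156.6 CPM. The part of any of these marker levels in the results on repair genes was not tested.

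Promoters of 3 genes are shown as examples. Apex1 was among the members that were lowest relative to DMSO in SR1848 embryos and was higher in the SR1848_NR5A2OE group than in SR1848 embryos. Pms2 was low in both SR1848 groups, as were other members such as Mlh3 and Parp1. Rad52 was higher in SR1848 embryos than in both other groups. The sequences run 5′ to 3′ on the plus strand from 250 bases before to 50 bases after the annotated start of each gene (RefSeq, GRCm38.p6): chr14:50924699-50924998 for Apex1, chr5:143909751-143910050 for Pms2 and chr6:119902448-119902747 for Rad52. The genes themselves are annotated on the plus strand at chr14:50924968-50927139, chr5:143909964-143933968 and chr6:119902698-119922828 (GENCODE M21, GRCm38), and each is protein-coding. Capitals mark the CCAAT box bound by the factor NFY and AAGGNCA, the core of the NR5A2 motif TCAAGGNCA, on either strand; the core lies within the longer motif.

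Apex1 promoter: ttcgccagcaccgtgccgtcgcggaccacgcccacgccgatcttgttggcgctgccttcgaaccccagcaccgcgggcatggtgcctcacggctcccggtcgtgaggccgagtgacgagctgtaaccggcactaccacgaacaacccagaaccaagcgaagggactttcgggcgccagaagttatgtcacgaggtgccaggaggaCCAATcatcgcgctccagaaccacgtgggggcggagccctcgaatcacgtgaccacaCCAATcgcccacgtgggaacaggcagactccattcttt
Pms2 promoter: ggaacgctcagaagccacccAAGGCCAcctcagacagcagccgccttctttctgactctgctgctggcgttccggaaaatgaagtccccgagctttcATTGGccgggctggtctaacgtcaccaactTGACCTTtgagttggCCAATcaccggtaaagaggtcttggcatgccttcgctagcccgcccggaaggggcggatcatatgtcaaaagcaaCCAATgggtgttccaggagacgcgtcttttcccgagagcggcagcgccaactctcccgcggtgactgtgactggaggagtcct
Rad52 promoter: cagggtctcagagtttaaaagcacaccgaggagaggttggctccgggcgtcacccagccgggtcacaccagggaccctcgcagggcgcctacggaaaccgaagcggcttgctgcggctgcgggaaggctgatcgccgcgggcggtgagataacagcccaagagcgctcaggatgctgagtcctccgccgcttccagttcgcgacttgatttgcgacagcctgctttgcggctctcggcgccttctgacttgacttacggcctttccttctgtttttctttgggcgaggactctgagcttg

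The Apex1 promoter held the CCAAT box at 2 places and no NR5A2 core. The Pms2 promoter held the NR5A2 core at 2 places and the CCAAT box at 3, and the Rad52 promoter held none of the searched motifs. RefSeq promoters were matched for 34 of the 41 genes (36 promoters). The core AAGGNCA was in 4 of these 36 (11.1%, the promoters of Atr, Fancl, Parp1 and Pms2), against 20.3% of all 32851 promoters of the same length. The whole motif TCAAGGNCA was in 1 of 36 (2.78%, Fancl), against 1.62% of all. The CCAAT box was in 22 of 36 (61.1%), against 37.4% of all, and TTTGGCGC or TTTCCCGC, forms of the site of the cell cycle factor E2F, were in 5 of 36 (13.9%, Bard1, Brca2, Msh3, Msh6 and Xrcc6), against 1.56% of all. These matches describe the letters of the windows on both strands and are not evidence of binding.

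Per transcript length, Brca2 was the most abundant of the 41 in every group of experiment 1, with 153.7 to 500.8 TPM (counts scaled to transcript length and library size) in SR1848_NR5A2OE, 78.9 to 439.9 TPM in SR1848 and 219.8 to 698.9 TPM in DMSO embryos. BRCA2 acts on resected DNA in homologous recombination. Behind it the order differed between groups. In SR1848_NR5A2OE embryos the next by median TPM were Msh3 (89.0), Apex1 (84.2) and Fancc (79.1). In SR1848 embryos they were Msh3 (111.4), Fancc (109.2), Neil3 (74.1), Xrcc3 (71.2) and Rad52 (60.2), and in DMSO embryos Apex1 (302.7), Ercc1 (127.0), Parp1 (90.7), Pms2 (86.3) and Xpa (82.3). Neil1, a glycosylase gene, was lowest in DMSO embryos at a median of 0.228 TPM and was the member that failed the filter on low counts in experiment 1 and in experiment 2 as labelled, so that 40 were tested there; without the 16 libraries all 41 passed.

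In SR1848 against DMSO embryos of experiment 1, 12 of the 40 tested genes were higher and 19 lower at an adjusted p under 0.05 (edgeR quasi-likelihood test, adjusted over 13478 genes), beside 36.9% higher and 38.6% lower among all genes tested. The median log2 fold change was -0.48 over the 40 genes and -0.04 over all genes. Each pathway of more than 3 tested genes had members on both sides: homologous recombination had 3 higher and 5 lower of 10, mismatch repair 2 and 2 of 5, base excision repair 3 and 5 of 8, the Fanconi anemia pathway 1 and 2 of 5, and nucleotide excision repair 1 and 4 of 7. End joining had 1 higher of 3 and none lower, and the kinases had 1 of each. These directions depend on the scaling: set to the summed maternal transcripts in place of TMM, the median over all genes moved to -2.33, and 0 of the 40 genes were higher and 32 lower. That scaling takes the maternal RNA as equal between groups, which was not measured. It shifts genes in general, and the share of all genes called under it is not given, here or below. Counts of repair genes under the maternal scaling are therefore not a result about repair genes in particular. The same holds for counts under any other setting that stand without a share of all genes.

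**Figure D1:**
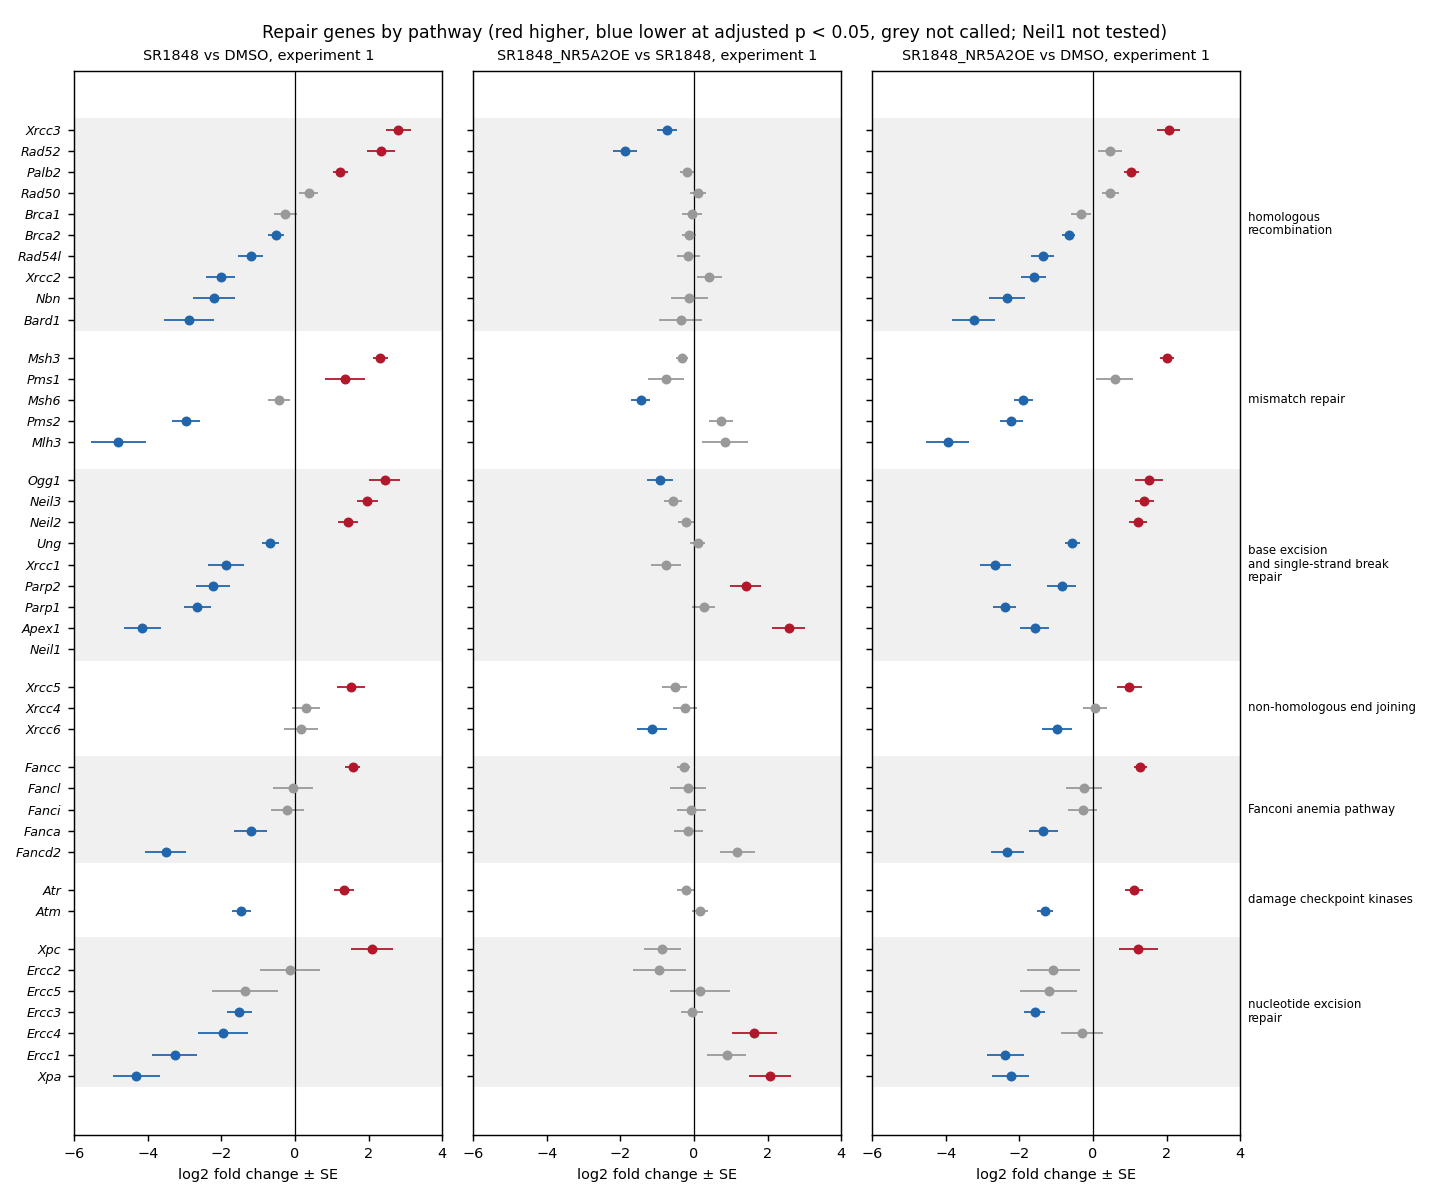
The log2 fold change of each repair gene in experiment 1, ordered within its pathway, is plotted as a point with a bar of 1 SE for SR1848 against DMSO (left), SR1848_NR5A2OE against SR1848 (middle) and SR1848_NR5A2OE against DMSO (right). Red and blue mark genes called higher (12, 4 and 10) and lower (19, 5 and 20), and grey marks genes that were not called.

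Within base excision repair, the nuclease gene Apex1, whose product cuts the strand at a site that has lost its base, had 0.0 to 35.7 CPM (median 9.56) in SR1848 embryos and 85.2 to 325.7 CPM (median 186.3) in DMSO embryos. Its log2 fold change was -4.15 (SE 0.51, adjusted p = 1.6e-10). The groups did not overlap. The share of all genes whose ranges do not overlap is not given, here or for the genes below. Parp1, which encodes the main sensor of nicked DNA, had 9.08 to 53.8 CPM (median 19.9) in SR1848 and 70.9 to 298.6 CPM (median 140.4) in DMSO embryos, again with no overlap, and fell by 2.66 on the log2 scale (SE 0.37, adjusted p = 5.3e-09). Its relative Parp2 had 0.0 to 78.2 CPM (median 9.05) in SR1848 and 40.8 to 91.9 CPM (median 64.4) in DMSO embryos; the log2 fold change was -2.24 (SE 0.46, adjusted p = 1.93e-05), and some SR1848 embryos reached the DMSO range. Xrcc1, the scaffold for nick sealing, and Ung, the uracil glycosylase, fell by 1.88 and 0.67 (adjusted p = 0.000411 and 0.00905); Ung was not called with the low libraries included (-0.71).

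Of the glycosylase genes that act on oxidized bases, 3 went the other way under TMM scaling, and Neil1 was not tested. Ogg1, Neil3 and Neil2 rose by 2.44, 1.96 and 1.44 on the log2 scale (adjusted p = 6.79e-07, 9.95e-09 and 1.62e-06), and under the maternal scaling their values were 0.18, -0.27 and -0.84. Ogg1 was a low transcript, with 1.1 to 12.8 CPM in SR1848 and 0.0 to 3.04 CPM in DMSO embryos. Neil2 had 63.4 to 247.7 CPM in SR1848 and 22.7 to 59.6 CPM in DMSO embryos, with no overlap. The exons of Ogg1 overlap Camk1 on the opposite strand over 10.6% of their bases, and those of Apex1 overlap Pip4p1 over 61.7%; the protocol keeps no strand, so the level of Apex1 is uncertain to that extent. Pip4p1 itself was lower by less (log2 fold change -1.66, adjusted p = 0.000385).

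In homologous recombination, Xrcc3 and Rad52 stood highest relative to DMSO. Xrcc3, a gene of homologous recombination, had 39.4 to 109.6 CPM (median 90.1) in SR1848 and 0.448 to 30.2 CPM (median 11.4) in DMSO embryos, with no overlap; it rose by 2.8 on the log2 scale (SE 0.34, adjusted p = 1.14e-10) and stood at 0.63 under the maternal scaling. Rad52, which encodes a strand annealing protein, had 22.8 to 88.8 CPM (median 50.7) in SR1848 and 0.448 to 19.7 CPM (median 8.87) in DMSO embryos, likewise with no overlap. It rose by 2.33 (SE 0.38, adjusted p = 2.17e-07) and stood at 0.0 under the maternal scaling. Palb2, the partner of BRCA2, rose by 1.23 (adjusted p = 9.66e-07), with -1.01 under the maternal scaling. The lower members were Bard1, the partner of BRCA1 (log2 fold change -2.87), Nbn of the break-sensing MRN complex (-2.2), the recombination gene Xrcc2 (-2.02), the remodeler gene Rad54l (-1.21) and Brca2 (-0.52), with adjusted p from 1.01e-05 to 0.0222. Rad50 and Brca1 were not called, at 0.37 and -0.27. With the 7 low libraries included, Brca2 was not called (-0.22). The exons of Rad54l overlap Lrrc41 on the opposite strand over 15.4% of their bases, so its level is uncertain.

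Mismatch repair had members on both sides. Msh3, whose product binds loops of unpaired bases, had 47.9 to 240.3 CPM (median 162.0) in SR1848 and 14.4 to 46.1 CPM (median 32.9) in DMSO embryos. It rose by 2.32 (SE 0.2, adjusted p = 2.25e-15) with no overlap of the groups, and stood at -0.02 under the maternal scaling. Msh6, whose product binds single mismatches, had 6.61 to 170.7 CPM (median 54.0) in SR1848 and 41.1 to 130.3 CPM (median 80.9) in DMSO embryos and was not called (-0.44, SE 0.3, adjusted p = 0.181). Pms2, whose product acts after the mismatch has been bound, had 2.98 to 24.8 CPM (median 14.9) in SR1848 and 69.8 to 161.5 CPM (median 113.8) in DMSO embryos. Its log2 fold change was -2.96 (SE 0.38, adjusted p = 6.86e-10), and the groups did not overlap. Mlh3 also fell, by 4.8 (SE 0.75, adjusted p = 9.58e-08), with at most 7.17 CPM in SR1848 and at least 9.12 CPM in DMSO embryos, while Pms1 rose by 1.35 (adjusted p = 0.0245), with -0.98 under the maternal scaling; Pms1 was not called with relative log expression scaling or DESeq2 (0.8 in both).

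Nucleotide excision repair was mostly lower. Xpa, whose product checks the lesion and holds the incision complex together, had 0.0 to 4.64 CPM (median 0.433) in SR1848 and 12.8 to 30.8 CPM (median 22.9) in DMSO embryos, with a log2 fold change of -4.31 (SE 0.65, adjusted p = 4.29e-08). Ercc1, which encodes the partner subunit of the XPF nuclease, had 0.0 to 12.5 CPM (median 3.45) in SR1848 and 14.1 to 68.6 CPM (median 42.8) in DMSO embryos, and fell by 3.27 (SE 0.61, adjusted p = 3.77e-06). Neither gene overlapped between the groups. Ercc4, which encodes XPF itself, had 0.0 to 15.0 CPM (median 4.81) in SR1848 and 1.45 to 138.1 CPM (median 10.1) in DMSO embryos; the ranges overlapped, and it fell by 1.96 (SE 0.67, adjusted p = 0.00757). The helicase gene Ercc3 fell by 1.52 (adjusted p = 7.52e-05), the damage sensor gene Xpc rose by 2.09 (adjusted p = 0.00119; -0.12 under the maternal scaling), and Ercc2 and Ercc5 were not called. The exons of Ercc2 overlap Gm26852 over 24.6% of their bases, and its level is uncertain.

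Of the Fanconi anemia genes, Fancd2, which encodes a component of the monoubiquitinated clamp at cross-links, had 0.0 to 8.17 CPM (median 3.34) in SR1848 and 11.4 to 60.0 CPM (median 36.3) in DMSO embryos. Its log2 fold change was -3.51 (SE 0.56, adjusted p = 1.46e-07), with no overlap. Fancc of the core complex had 31.9 to 139.6 CPM (median 92.1) in SR1848 and 17.5 to 56.4 CPM (median 29.1) in DMSO embryos, with overlapping ranges, and rose by 1.57 (SE 0.2, adjusted p = 2.68e-10), with -0.68 under the maternal scaling. Fanca fell by 1.2 (adjusted p = 0.0134; not called with the low libraries included, -0.75), and Fanci and Fancl were not called, at -0.21 and -0.06. The exons of Fancc, Fanci, Fancl and Fanca overlap a gene on the opposite strand over 10.5% to 16.4% of their bases, so their levels are uncertain.

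The kinases moved in opposite directions under TMM scaling: Atm, which responds to broken ends, had 9.32 to 46.1 CPM (median 27.0) in SR1848 and 35.9 to 118.2 CPM (median 71.0) in DMSO embryos and fell by 1.46 (SE 0.25, adjusted p = 7.13e-07). Atr, which responds to exposed single strands at stalled forks, had 3.58 to 52.2 CPM (median 29.1) in SR1848 and 2.37 to 21.6 CPM (median 10.1) in DMSO embryos and rose by 1.33 (SE 0.27, adjusted p = 1.49e-05), with -0.93 under the maternal scaling. In end joining, Xrcc5, which encodes the larger Ku subunit that rings broken ends, had 9.61 to 31.8 CPM (median 19.9) in SR1848 and 2.91 to 14.5 CPM (median 6.32) in DMSO embryos, and rose by 1.52 (SE 0.38, adjusted p = 0.000349), with -0.71 under the maternal scaling. Its partner Xrcc6 had 5.41 to 22.3 CPM (median 11.0) in SR1848 and 5.78 to 19.2 CPM (median 10.5) in DMSO embryos and was not called (0.17, SE 0.46, adjusted p = 0.744). Xrcc4, which holds the ligase, had medians of 8.79 CPM in SR1848 and 7.35 CPM in DMSO embryos and was not called (0.3, SE 0.37, adjusted p = 0.463).

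**Figure D2:**
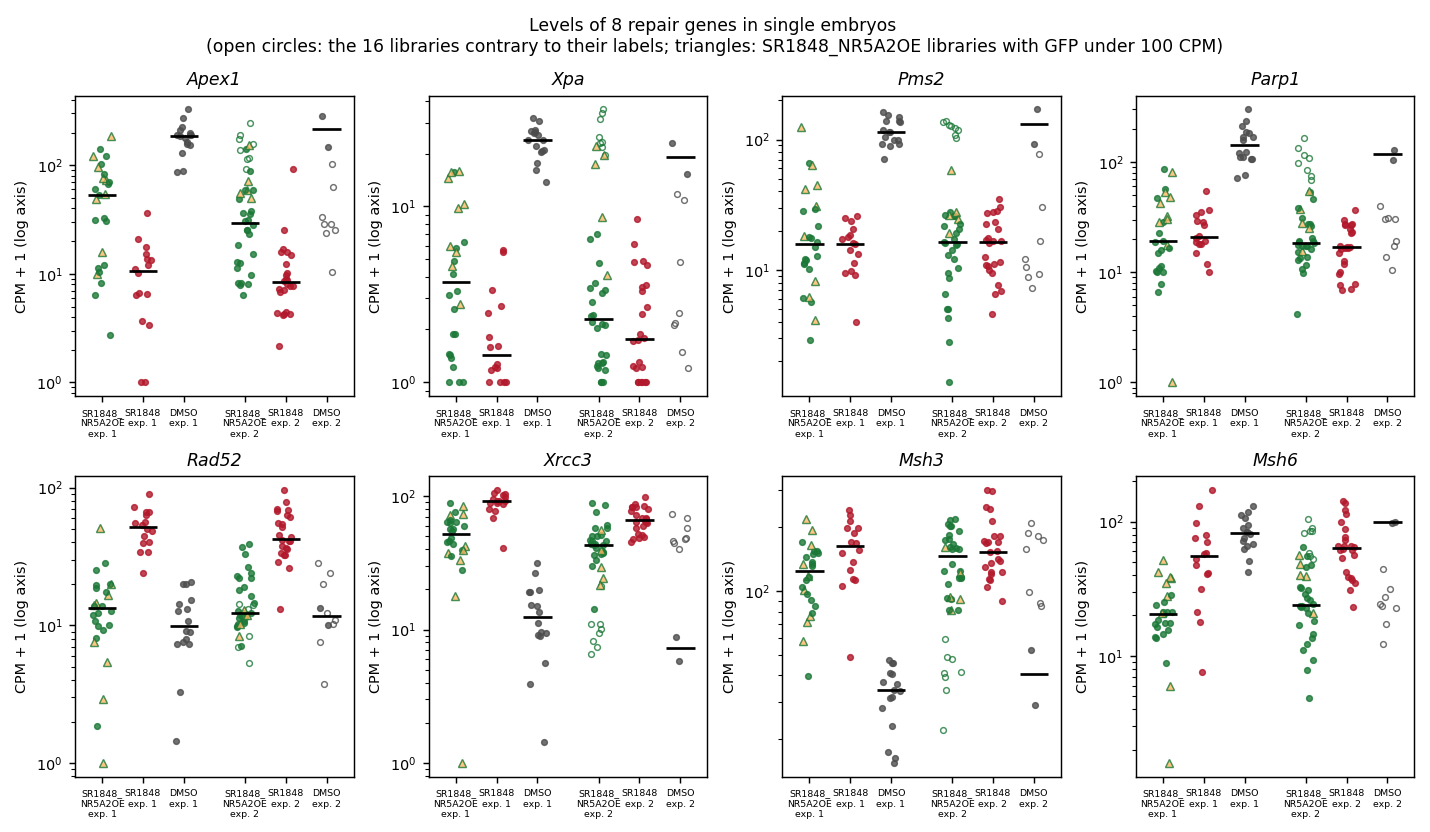
Levels of 8 repair genes in single embryos are plotted as CPM + 1 on a log axis, with 1 point per library and a line at the median (in experiment 2 without the 16 libraries, drawn as open circles; triangles are SR1848_NR5A2OE libraries under 100 CPM of GFP). In experiment 1 all SR1848 points of Apex1, Xpa, Pms2 and Parp1 lie below all DMSO points, and those of Rad52, Xrcc3 and Msh3 lie above.

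Few repair genes differed between the group given NR5A2 mRNA with SR1848 and SR1848 alone. In SR1848_NR5A2OE against SR1848 embryos of experiment 1, 4 of 40 genes were higher and 5 lower, beside 23.7% higher and 9.01% lower among all 13478 genes. The median log2 fold change was -0.15 over the 40 genes and 0.13 over all genes, and 0.76 over all genes under the maternal scaling, where 13 repair genes were higher and 1 lower. With relative log expression scaling 6 were higher and 4 lower. Without the 9 libraries under 100 CPM of GFP, 1 gene was higher and 4 were lower, beside 18.8% higher and 10.3% lower of 13000 genes: Apex1 was the higher one, Rad52, Msh6, Xrcc6 and Xrcc3 were lower, and Parp2, Xpa, Ercc4 and Ogg1 were not called. The 4 higher genes were Apex1, Parp2, Xpa and Ercc4, and the 5 lower ones were Rad52, Msh6, Xrcc6, Ogg1 and Xrcc3. The SR1848 libraries serve both in this comparison and in that with DMSO, so the directions of a gene in the 2 comparisons are not independent.

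Apex1 had 1.72 to 185.7 CPM (median 52.7) in SR1848_NR5A2OE embryos, against 0.0 to 35.7 CPM in SR1848 embryos. It rose by 2.57 (SE 0.45, adjusted p = 1.48e-05), and 15 of the 26 SR1848_NR5A2OE embryos lay above all SR1848 embryos. The median was 31.7 CPM in the 17 embryos with GFP, of which 8 lay above all SR1848 embryos, and 72.4 CPM in the 9 with little GFP, of which 7 did. Without the 9, Apex1 stood 2.34 above SR1848 on the log2 scale (SE 0.46, adjusted p = 8.12e-05). Against DMSO embryos it was still lower, by a log2 fold change of -1.58 (SE 0.39, adjusted p = 0.000324). Parp2 had 0.0 to 83.5 CPM (median 21.4) in SR1848_NR5A2OE embryos and rose by 1.4 over SR1848 (SE 0.42, adjusted p = 0.0072), and Xpa had 0.0 to 14.9 CPM (median 2.71) and rose by 2.06 (SE 0.57, adjusted p = 0.00351). Both ranges overlapped those of SR1848 embryos, with 2 of 26 embryos above all SR1848 embryos for Parp2 and 9 of 26 for Xpa. Ercc4 had 0.0 to 102.5 CPM (median 10.7) in SR1848_NR5A2OE embryos and rose by 1.64 (SE 0.62, adjusted p = 0.0355). Parp2, Xpa and Ercc4 also had higher medians where GFP was low, and this was not tested: Parp2 had medians of 15.8 CPM in the 17 embryos with GFP and 55.0 CPM in the 9 with little, Xpa 0.888 and 8.77 CPM, and Ercc4 9.78 and 20.8 CPM. Without the 9 embryos none was called, at log2 fold changes of 0.9 for Parp2 (SE 0.39, adjusted p = 0.0725), 1.17 for Xpa (SE 0.57, adjusted p = 0.119) and 1.2 for Ercc4 (SE 0.63, adjusted p = 0.154). With the 7 low libraries included, Parp2 and Ercc4 were not called (1.33 and 1.56).

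Rad52 had 0.0 to 49.5 CPM (median 12.3) in SR1848_NR5A2OE embryos, against 22.8 to 88.8 CPM in SR1848 embryos, and fell by 1.87 (SE 0.32, adjusted p = 9.28e-06). Of the 26 embryos, 23 lay below all SR1848 embryos, and against DMSO embryos Rad52 was not called (0.46, SE 0.33, adjusted p = 0.2). Msh6 had 0.584 to 50.7 CPM (median 19.5) in SR1848_NR5A2OE embryos, lower than SR1848 by a log2 fold change of -1.45 (SE 0.26, adjusted p = 2.45e-05) and lower than DMSO by -1.89 (SE 0.26, adjusted p = 6.68e-09), with ranges that overlapped in both. Xrcc6 had 0.0 to 20.3 CPM (median 4.98) in SR1848_NR5A2OE embryos and fell by 1.15 (SE 0.41, adjusted p = 0.0244), with 17 of 26 embryos below all SR1848 embryos. Xrcc3 had 0.0 to 87.8 CPM (median 50.8) in SR1848_NR5A2OE embryos and fell by 0.73 (SE 0.28, adjusted p = 0.0364); against DMSO it was higher by 2.06 (adjusted p = 4.01e-08), with 0.46 under the maternal scaling. Ogg1 fell by 0.92 (SE 0.35, adjusted p = 0.0352). With the low libraries included, Xrcc3 and Ogg1 were not called (-0.73 and -0.94). Without the 9 libraries with little GFP, Rad52, Msh6, Xrcc6 and Xrcc3 were still called lower, at -1.87, -1.72, -1.33 and -0.62 (adjusted p = 2.37e-06, 3.4e-07, 0.00897 and 0.0465), and Ogg1 was not (-0.88, adjusted p = 0.1). Under the maternal scaling Msh6, Xrcc6, Xrcc3 and Ogg1 kept their sign and were not called.

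The other genes given in full showed no call between SR1848_NR5A2OE and SR1848. Pms2 had 1.92 to 124.5 CPM (median 14.7), Parp1 0.0 to 85.9 CPM (median 18.1), Ercc1 0.0 to 35.6 CPM (median 4.15) and Fancd2 0.0 to 19.2 CPM (median 4.68) in SR1848_NR5A2OE embryos. These medians lay within the SR1848 ranges. Msh3 had 38.7 to 218.3 CPM (median 123.8), Fancc 24.3 to 149.9 CPM (median 72.7), Atm 10.4 to 95.8 CPM (median 24.2), Atr 6.51 to 48.5 CPM (median 21.2), Xrcc5 0.0 to 46.8 CPM (median 12.3) and Xrcc4 0.584 to 21.0 CPM (median 7.25).

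Set directly against DMSO in experiment 1, SR1848_NR5A2OE embryos had 10 repair genes higher and 20 lower of 40, beside 40.0% higher and 34.3% lower among all genes. The median log2 fold change was -0.75 over the 40 genes and 0.22 over all genes; under the maternal scaling the median over all genes was -1.41, with 0 repair genes higher and 33 lower. Without the 9 libraries with little GFP the counts were again 10 higher and 20 lower, beside 40.0% and 36.7% of all genes. Mlh3 was the member whose ranges did not overlap, with at most 6.14 CPM in SR1848_NR5A2OE and at least 9.12 CPM in DMSO embryos. No share over all genes is given beside it, so this does not set repair genes apart.

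Experiment 2 repeated the comparisons with new embryos. Without the 16 libraries, 8 of 41 genes were higher and 13 lower in SR1848 than in DMSO embryos, beside 19.8% higher and 21.0% lower of 18319 genes, with a median of -0.46 over the 41 genes and 0.38 over all; under the maternal scaling the median over all was -1.91, with 1 repair gene higher and 31 lower. As labelled, 5 of 40 were higher and 8 lower, beside 7.76% and 22.6% of 15174 genes. Of the 12 genes called higher in experiment 1, 7 were called higher again without the 16 libraries (58.3% of 12 and 87.5% of 8), and of the 19 called lower, 13 were called lower again (68.4% of 19 and all of the 13). Over all genes the corresponding shares were 67.7% and 95.6% for higher genes and 65.3% and 97.8% for lower genes. None of the 40 repair genes was called in opposite directions by the 2 experiments. With DMSO library 10 also left out, 5 repair genes were higher, against 8 with it.

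Apex1 had 1.15 to 91.0 CPM (median 7.36) in SR1848 embryos of experiment 2, against 281.5 and 147.4 CPM in the DMSO libraries 9 and 10. Its log2 fold change was -4.07 without the 16 libraries (adjusted p = 6.66e-07, edgeR) and -2.62 as labelled (adjusted p = 4.02e-05). Rad52 had 12.2 to 94.8 CPM (median 41.5) in SR1848 embryos, against 12.3 and 9.01 CPM in DMSO libraries 9 and 10, so that the lowest SR1848 embryo fell inside their range. It rose by 2.26 without the 16 libraries (adjusted p = 0.00172, edgeR) and by 1.84 as labelled (adjusted p = 4.13e-06). Xrcc3 rose by 3.51 and Msh3 by 2.18 without the 16 libraries (adjusted p = 4.08e-08 and 2.55e-05), but as labelled they stood at 0.61 and 0.39 and were not called. Pms2, Parp1, Ercc1 and Mlh3 fell by 2.92, 2.64, 3.32 and 3.52 without the 16 libraries and by 1.41, 1.27, 1.68 and 1.97 as labelled, each called in both forms.

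Between SR1848_NR5A2OE and SR1848 in experiment 2, 3 of 41 genes were higher and 9 lower without the 16 libraries, beside 23.1% higher and 11.9% lower of all genes; under the maternal scaling 13 were higher and 2 lower. As labelled, 7 of 40 were higher and 10 lower, beside 30.9% and 12.8%; with relative log expression scaling 9 were higher and 7 lower, with DESeq2 13 and 8, and under the maternal scaling 30 and 1. Without the 16 libraries Apex1 rose by 1.7 (SE 0.36, adjusted p = 0.000154) and Parp2 by 1.2 (SE 0.4, adjusted p = 0.0135). As labelled the values were 2.38 and 1.46 (adjusted p = 2.18e-06 and 0.0014). Apex1 had 5.43 to 152.7 CPM (median 28.4) in these SR1848_NR5A2OE embryos, whose range overlapped that of SR1848. Both genes again had higher medians where GFP was low: they were 24.2 CPM of Apex1 and 11.4 CPM of Parp2 in the 25 embryos with GFP, and 58.6 and 104.7 CPM in the 5 with little. With these 5 also left out, Apex1 stood at 1.39 (SE 0.37, adjusted p = 0.00206), and Parp2 at 0.48 was not called (SE 0.37, adjusted p = 0.328); 2 repair genes were then higher and 10 lower, beside 22.6% higher and 13.1% lower of 18018 genes. Rad52, Msh6, Ogg1 and Xrcc3 fell by 1.61, 1.33, 0.86 and 0.57 (adjusted p = 3.05e-10, 8.8e-07, 0.00844 and 0.00047). As labelled they stood at -1.71, -0.87, -1.07 and -0.81, and without the 5 as well at -1.5, -1.45, -0.75 and -0.48, each called lower in both forms. Thus 2 of the 4 genes called higher and 4 of the 5 called lower in experiment 1 recurred with all libraries but the 16, beside 52.6% and 66.7% over all genes.

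**Figure D3:**
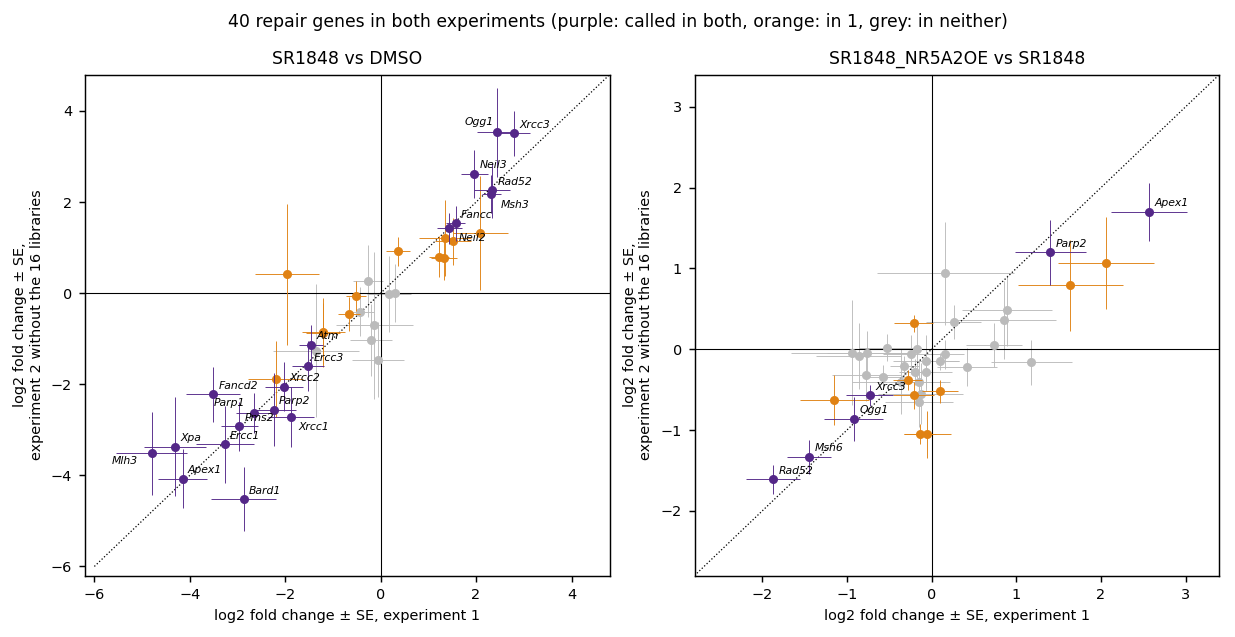
The log2 fold change of 40 repair genes in experiment 2 without the 16 libraries (vertical axis) is plotted against that in experiment 1 (horizontal axis), with bars of 1 SE, for SR1848 against DMSO (left) and SR1848_NR5A2OE against SR1848 (right). Purple points were called in both experiments (20 on the left, 6 on the right), orange points in 1 experiment and grey points in neither, and the dotted line marks equal values.

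Between SR1848_NR5A2OE and DMSO in experiment 2, 7 of 41 genes were higher and 15 lower without the 16 libraries, beside 20.3% higher and 17.8% lower of all genes; under the maternal scaling 0 were higher and 28 lower. Without the 5 libraries with little GFP as well, 6 were higher and 19 lower, beside 20.6% and 22.6% of all genes. As labelled, edgeR called 0 higher and 0 lower, beside 0.0% higher and 0.0% lower of all genes, with 2 repair genes at an unadjusted p under 0.05 and 0 calls by DESeq2. With 2 DMSO libraries, leaving out either gave 4 higher (against 7), with 9 lower without library 9 and 13 lower without library 10 (against 15).

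The difference between the experiments was tested directly without the 16 libraries, over 19849 genes. For SR1848 against DMSO edgeR called 0 repair genes as higher and 0 as lower in experiment 2, beside 0.00504% and 0.0403% of all genes, and none had an unadjusted p under 0.05. For SR1848_NR5A2OE against DMSO it also called 0, beside 0.0101% and 0.0302%, and none had an unadjusted p under 0.05. For SR1848_NR5A2OE against SR1848 0 were higher and 1 was lower, beside 1.28% and 1.93%, and 5 had an unadjusted p under 0.05. The gene called was Brca2, with a difference of -0.84 (SE 0.22, adjusted p = 0.0181): its log2 fold change was -1.05 in experiment 2 without the 16 libraries (SE 0.12, adjusted p = 5.55e-10) and -0.14 in experiment 1 (SE 0.19, adjusted p = 0.603). Brca2 had 116.2 to 499.7 CPM (median 319.1) in SR1848_NR5A2OE and 386.3 to 940.6 CPM (median 614.9) in SR1848 embryos of experiment 2. In experiment 1 it had 197.0 to 1528.5 CPM (median 355.4) in SR1848_NR5A2OE and 180.4 to 696.5 CPM (median 486.4) in SR1848 embryos. The 17 SR1848_NR5A2OE embryos of experiment 1 with GFP had 197.0 to 514.4 CPM (median 339.5). As labelled, Brca2 stood at -0.58 in experiment 2 (adjusted p = 0.00268). The difference was not called under the maternal scaling, with all sound libraries as labelled, or without the libraries with little GFP (-0.66, SE 0.21, adjusted p = 0.0511). In that last form 0 repair genes were higher and 0 lower, beside 1.79% and 2.96% of all genes, and 7 had an unadjusted p under 0.05.

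Beyond the 41, 101 other repair and checkpoint genes were listed, of which 93 were tested in experiment 1. In SR1848 against DMSO embryos 29 of the 93 were higher and 43 lower, beside the 36.9% and 38.6% of all genes, with a median of -0.58; the counts were 20 and 49 with relative log expression scaling and 0 and 81 under the maternal scaling. The 3 higher genes with the smallest adjusted p were the translesion polymerase gene Poli (2.76, SE 0.28, adjusted p = 7.35e-13), the checkpoint clamp gene Hus1 (1.76, SE 0.21, adjusted p = 1.36e-10) and the gap-filling polymerase gene Polb (2.36, SE 0.3, adjusted p = 5.05e-10). The 3 lower ones were Gtf2h5, a subunit of the repair factor TFIIH (-4.92, SE 0.36, adjusted p = 6.64e-18), the checkpoint kinase gene Chek2 (-4.62, SE 0.38, adjusted p = 3.15e-16) and the translocase gene Fancm (-2.68, SE 0.23, adjusted p = 2.86e-15). In SR1848_NR5A2OE against SR1848 embryos 16 were higher and 12 lower, beside 23.7% and 9.01% of all genes (37 and 0 under the maternal scaling, and 11 higher and 16 lower of 92 without the libraries with little GFP). Against DMSO 21 were higher and 41 lower, beside 40.0% and 34.3% (2 and 77 under the maternal scaling). Chek2 had 0.292 to 62.9 CPM (median 22.0) in SR1848_NR5A2OE, 1.24 to 30.4 CPM (median 5.54) in SR1848 and 74.9 to 295.4 CPM (median 194.2) in DMSO embryos, so that neither SR1848 group reached the DMSO range.

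The summed gene levels hide a change in which transcript entries took the counts, which was looked for after the levels were seen and has no test. Protein-coding entries of Atm held at least 57.0% of its estimated count in SR1848_NR5A2OE (median 86.5%), at least 79.2% in SR1848 (median 93.8%) and 48.5% to 73.7% in DMSO embryos (median 59.7%), so that SR1848 and DMSO embryos did not overlap. The rest in DMSO embryos lay mainly on the retained-intron entry Atm-204 (median share 40.1%, against 13.1% in SR1848_NR5A2OE and 5.03% in SR1848). Ercc1 had medians of 60.6% in SR1848_NR5A2OE, 83.8% in SR1848 and 19.0% in DMSO embryos. Parp1 and Parp2 went the other way: the protein-coding share of Parp1 had medians of 48.5% in SR1848_NR5A2OE, 76.8% in SR1848 and 96.1% in DMSO embryos, and that of Parp2 had medians of 55.6%, 81.4% and 90.4% in the same groups. In experiment 2 without the 16 libraries, the medians for Parp1 were 46.3% in SR1848_NR5A2OE and 62.8% in SR1848 embryos, and 88.7% and 97.7% in the DMSO libraries. For 2 members most of the count lay elsewhere in every group: protein-coding entries held 5.2% to 12.5% of the pooled count of Pms2 and 0.6% to 3.5% of that of Neil2, so that the levels printed for these genes are mostly those of entries annotated as retained introns or processed transcripts. Other members had low shares in some groups. In DMSO embryos of experiment 1 protein-coding entries held 34.3% of the pooled count of Xpa and 26.0% of that of Ogg1. In SR1848 embryos of experiment 1 they held 54.2% and 45.3%. Shares of a gene with few counts vary widely between embryos, and kallisto divides reads between entries that share exons.

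**Figure D4:**
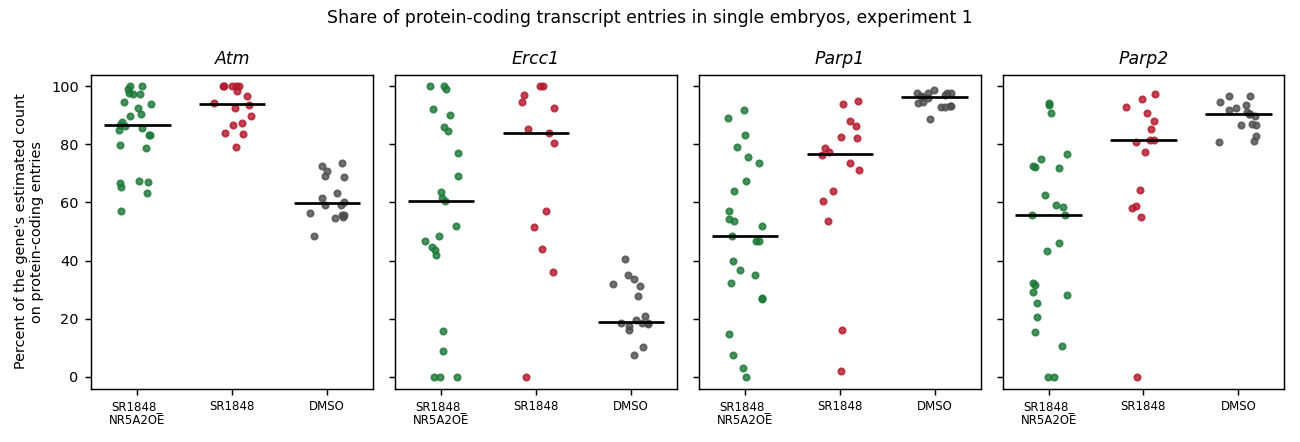
The percent of the estimated count of Atm, Ercc1, Parp1 and Parp2 that lies on protein-coding transcript entries is plotted for each embryo of experiment 1, with a line at the median. DMSO embryos lie lowest for Atm and Ercc1 at the median and highest for Parp1 and Parp2.

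The authors' deposited table compares SR1848_NR5A2OE with SR1848 for single transcripts. It lists 308 transcripts of the 41 genes, of which 48 had an adjusted p under 0.05, 20 with a positive and 28 with a negative log2 fold change. For 23 of these 48 in the authors' deposited table the log2 fold change rounds to 0 at 2 decimals (9 positive and 14 negative), which leaves 11 positive and 14 negative. In the authors' deposited table, ENSMUST00000049411 of Apex1 had a log2 fold change of 1.7 (adjusted p = 5.25e-08), ENSMUST00000005503 of Msh6 had -1.72 (adjusted p = 8.29e-14) and ENSMUST00000032269 of Rad52 had -2.09 (adjusted p = 0.00204). In the authors' deposited table the transcripts of Atr split: ENSMUST00000034980, the protein-coding entry, had -1.19 (adjusted p = 0.000129), and the retained-intron entry ENSMUST00000189602 had 1.49 (adjusted p = 8.46e-13).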

How the data were processed

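Polyadenylated RNA of single embryos was sequenced. The submitters' processing notes name bcl2fastq, Trim Galore 0.6.2, kallisto 0.46.1, DESeq2 1.32.0 and R 3.5.1, and the builds mm10 and hg19, the role of hg19 being not given in the sources used here. In the authors' table are kallisto estimated counts, as deposited, for 119358 transcript entries, of which 26.3% of values are not whole (tolerance 1e-09). The authors' deposited comparison gives log2 fold changes and adjusted p-values, per the file headers.

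Columns were matched to samples by prefix, number and experiment; the prefix C88 was read as SR1848_NR5A2OE and ComS as SR1848, which rests on the numbers of columns and replicate numbers. Symbols from the authors' table paired 117523 entries; the rest held 0.82% of counts and were left out. Sums per symbol were rounded and tested with edgeR 4.0.16 (quasi-likelihood, TMM scaling, filterByExpr, Benjamini-Hochberg adjustment over all genes tested, threshold 0.05) in R 4.3.3, with 3 groups in 1 fit per experiment; DESeq2 1.42.0 was an alternative. Fold changes are on the log2 scale, with an SE equal to the absolute log2 fold change divided by the square root of F. CPM of GFP and Nr5a2 use library totals without TMM, and all other CPM use TMM-scaled library sizes. TPM were computed from the same counts and annotated lengths. A library was low when its total was under 1 in 5, or its detected genes under 1 in 2, of the median over all libraries. The difference between experiments came from 1 fit of 6 groups without the 16 libraries. On simulated counts of 13462 genes for SR1848 against DMSO in experiment 1, 88% of genes changed by -2 and 92% of those changed by 2 on the log2 scale were recovered, 66% at -1 and 48% at 1, and 13 of 13262 unchanged genes were called. The simulation changed 50 genes at each size, with levels and spread taken from DMSO embryos alone. In the data 36.9% of genes were called higher and 38.6% lower, so it cannot measure the error rate or the effect of the scaling there.

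Depth allows for counting error only within the spread between embryos, since the protocol has no molecular identifiers and keeps no strand. Library numbers did not pair samples: deviations of same-numbered libraries correlated at -0.372 to 0.0942 in experiment 1 (0 of 45 pairs over 0.1) and at -0.484 to 0.324 in experiment 2 (8 of 44 pairs). Values are given in full for the 2 members of each pathway with the smallest p for SR1848 against DMSO, and the 2 for SR1848_NR5A2OE against SR1848, in experiment 1 (1 each for the kinases). Of other repair genes the 3 with the smallest adjusted p in each direction are named. The members, lists and tests were chosen with earlier results of these data known. Alternatives were relative log expression scaling, library totals, scaling to the maternal list, no filter, DESeq2, low libraries included, a replicate block, genes paired by GENCODE M21, 1 fit over both experiments and leaving out libraries.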

Additional observations from a re-analysis of the deposited data

Results flagged for a closer look

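In 9 of the 41 repair genes, 1 of the 10 libraries labelled DMSO in experiment 2 stood apart from the rest on the high side by Dixon's test. Chance flags about 1 in 20 groups when all libraries are of 1 kind. This group mixes 8 libraries that go against their labels with 2 others, so that rate is no guide here. The highest level was that of library 9 for Nbn (37.4 CPM), Pms2 (169.1 CPM), Apex1 (281.5 CPM) and Atm (110.5 CPM) and that of library 10 for Xrcc1 (61.3 CPM). It was that of library 5 for Palb2 (71.9 CPM) and Xrcc4 (22.2 CPM), of library 7 for Xrcc5 (37.7 CPM) and of library 2 for Ercc4 (86.0 CPM). Libraries 9 and 10 are those outside the 16 libraries that go against their labels.

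Brca2 differed between the experiments in SR1848_NR5A2OE against SR1848 embryos, with a difference of -0.84 (experiment 2 minus experiment 1, log2) by edgeR's test of the difference. It was not called under the maternal scaling, with all sound libraries as labelled or without the SR1848_NR5A2OE libraries under 100 CPM of GFP (-0.66).

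GFP, which the labels do not name, had a median of 2514 CPM in libraries 1 to 8 labelled DMSO in experiment 2, above the highest level in sound DMSO libraries of experiment 1 (0.771 CPM).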

How the results depend on the processing

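Of 1008 alternative values for the called members, 875 kept direction and call, 100 kept only the direction and 33 reversed, all under scaling to the maternal list. For SR1848 against DMSO in experiment 1 these were Palb2 -1.01, Msh3 -0.02, Pms1 -0.98, Neil2 -0.84, Neil3 -0.27, Xrcc5 -0.71, Fancc -0.68, Atr -0.93 and Xpc -0.12. For SR1848_NR5A2OE against DMSO in experiment 1 they were Palb2 -0.65, Neil2 -0.41, Neil3 -0.36, Ogg1 -0.01, Xrcc5 -0.87, Fancc -0.46, Atr -0.44 and Xpc -0.32, and without libraries under 100 CPM of GFP as well Palb2 -0.63, Neil2 -0.19, Neil3 -0.19, Xrcc5 -0.94, Fancc -0.45, Atr -0.45 and Xpc -0.10. In experiment 2 as labelled they were Pms1 -0.10 and Fancc -0.40 for SR1848 against DMSO, and Brca1 0.58, Brca2 1.03, Msh6 0.80, Neil3 0.24, Ung 0.97, Fancc 0.25 and Atr 0.47 for SR1848_NR5A2OE against SR1848.

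Counts of members called (higher, lower) under the maternal scaling were 0 and 32 for SR1848 against DMSO, 13 and 1 for SR1848_NR5A2OE against SR1848 and 0 and 33 for SR1848_NR5A2OE against DMSO in experiment 1. In experiment 2 as labelled they were 1 and 28 for SR1848 against DMSO and 30 and 1 for SR1848_NR5A2OE against SR1848. With the maternal scaling and without the 16 libraries, a setting chosen after seeing the data, they were 1 and 31, 13 and 2, and 0 and 28 for the 3 comparisons in the order above. In 1 fit over both experiments, SR1848_NR5A2OE against SR1848 gave 9 and 11 (against 4 and 5 in experiment 1 alone), SR1848 against DMSO 12 and 17 (against 5 and 8 in experiment 2 alone) and SR1848_NR5A2OE against DMSO 9 and 18 (against 0 and 0 in experiment 2 alone). That fit holds the sound libraries of both experiments, the 16 included. No share of all genes is given beside the counts in this section, so they are not a result about repair genes in particular.

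Leaving out the SR1848_NR5A2OE libraries under 100 CPM of GFP, chosen after seeing the data, gave 1 higher for SR1848_NR5A2OE against SR1848 in experiment 1. With the maternal scaling as well, the counts were 11 and 2 for SR1848_NR5A2OE against SR1848 and 1 and 32 for SR1848_NR5A2OE against DMSO in experiment 1, and 6 and 3, and 1 and 28, in experiment 2 without the 16 libraries.

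Leaving out the 16 libraries in experiment 2 gave 8 and 13 for SR1848 against DMSO, 3 higher for SR1848_NR5A2OE against SR1848 and 7 and 15 for SR1848_NR5A2OE against DMSO. Without DMSO library 9 or 10 as well, SR1848 against DMSO had 5 to 6 higher and 9 to 12 lower, and SR1848_NR5A2OE against DMSO had 4 higher and 9 to 13 lower. With the replicate block (the library number), SR1848_NR5A2OE against SR1848 in experiment 1 had 2 higher and 2 lower, and SR1848 against DMSO in experiment 2 had 3 and 0; the numbers do not pair embryos, and in experiment 2 only 1 of 58 libraries correlated best with its own number. With low libraries included, 2 were higher for SR1848_NR5A2OE against SR1848 in experiment 1. For SR1848 against DMSO in experiment 2, 3 were higher with low libraries included, with genes paired by GENCODE M21 or with relative log expression scaling. DESeq2 gave 13 higher for SR1848_NR5A2OE against SR1848 in experiment 2.

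The difference between experiments, with all sound libraries as labelled, had 8 higher and 8 lower for SR1848 against DMSO, 0 lower for SR1848_NR5A2OE against SR1848 and 14 higher and 7 lower for SR1848_NR5A2OE against DMSO; under the maternal scaling, or without the libraries under 100 CPM of GFP, 0 were lower for SR1848_NR5A2OE against SR1848. The fit as labelled includes the 16 libraries, and no share of all genes is given beside these counts. They are therefore not a result about repair genes in particular. The cause of the changes between settings was not tested. Members near 0 CPM, such as Neil1, Ercc2 and Ercc5, are limited by depth, and the 2 DMSO libraries left in experiment 2 limit its comparisons.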

Other observations

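Single transcript entries of Rad50 and Atr shifted between groups while the summed gene of Rad50 was not called in experiment 1; these entries were chosen after their values were seen and have no test. Rad50, whose product tethers broken ends in the MRN complex, has an entry annotated as a target of nonsense-mediated decay (3085 bases). It held 0.0% to 67.9% of the gene's estimated count in SR1848_NR5A2OE embryos (median 15.1%), 0.0% to 47.4% in SR1848 embryos (median 20.1%) and 0.0% to 2.2% in DMSO embryos (median 0.0%) of experiment 1. In experiment 2 without the 16 libraries the medians were 25.1% in SR1848_NR5A2OE and 20.6% in SR1848 embryos, and the entry was at 0.0% in both DMSO libraries.

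For Atr, the retained-intron entry of 982 bases held a median of 23.9% of the estimated count in SR1848_NR5A2OE embryos, 5.8% in SR1848 embryos and 19.7% in DMSO embryos of experiment 1. In experiment 2 without the 16 libraries the medians were 35.5% in SR1848_NR5A2OE and 5.64% in SR1848 embryos, with 4.66% and 5.04% in the DMSO libraries. The median of the DMSO embryos of experiment 1 thus lay above both DMSO libraries of experiment 2 for this entry, and that difference was not tested. Shares of Atr varied widely among DMSO embryos of experiment 1, where its protein-coding entries held 0.0% to 91.7% of the estimated count. The part that reads shared between entries play in these shares was not tested.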
